A study of Homo sapiens with 16 samples.

Results

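The E2F family of transcription factors was followed through silencing of YES1, a kinase of the Src family, in 2 triple-negative breast cancer lines. The set holds 10 genes, E2F1 to E2F8 with the DP partners TFDP1 and TFDP2, chosen by gene symbol among 58735 genes counted. MDA-MB-231 was derived from a pleural effusion and SUM159PT from an anaplastic breast carcinoma, and both are mesenchymal-like, with the labels giving the genotype as WT. Cells of each line were transfected with Lipofectamine2000, either with siYES1, an siRNA to YES1, or with siNS, a control siRNA to the luciferase of fireflies, and RNA was taken at 48 h. Each of the 4 groups has 4 libraries, which the design text calls technical replicates, so p-values here measure only the spread between such samples of 1 line.

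E2F proteins control the entry of cells into S phase. The activators E2F1, E2F2 and E2F3 switch on genes for DNA replication once cyclin-dependent kinases have released them from RB. E2F4 and E2F5 repress the same genes together with the pocket proteins RBL1 and RBL2 in resting cells, E2F6 represses with a polycomb complex, and the atypical E2F7 and E2F8 repress in S and G2 phase. E2F1 to E2F6 bind DNA as dimers with TFDP1 or TFDP2, whereas E2F7 and E2F8 bind without a DP partner. Several of these genes, E2F1, E2F2, E2F7 and E2F8 among them, are themselves E2F targets, so that activators and their late repressors are linked in a feedback loop.

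Promoter windows show where E2F sites lie in the family's own genes. The RefSeq (GRCh38.p14) windows used here included 11 of 300 bases around start sites for 8 of the 10 genes. No window of E2F5 or E2F8 was examined. An 8-base E2F site, spelled TTTCCCGC, TTTCGCGC, TTTGCCGC or TTTGGCGC and searched on both strands, was found in a window of E2F1, E2F2, E2F3 and TFDP1. Of 35116 RefSeq windows of this length, 3.31% held such a site. The windows of 2 activators that carry the site and of E2F7, the member with the largest change, are printed with E2F sites in capitals, for E2F1 (chr20:33686336-33686635, minus strand), E2F2 (chr1:23531184-23531483, minus strand) and E2F7 (chr12:77065520-77065819, minus strand).
E2F1: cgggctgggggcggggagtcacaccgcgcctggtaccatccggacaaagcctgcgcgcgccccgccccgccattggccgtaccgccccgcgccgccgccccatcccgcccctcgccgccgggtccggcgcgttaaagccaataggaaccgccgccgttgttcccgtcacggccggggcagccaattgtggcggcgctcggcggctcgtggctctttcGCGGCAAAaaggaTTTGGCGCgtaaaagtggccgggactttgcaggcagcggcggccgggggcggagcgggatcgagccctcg
E2F2: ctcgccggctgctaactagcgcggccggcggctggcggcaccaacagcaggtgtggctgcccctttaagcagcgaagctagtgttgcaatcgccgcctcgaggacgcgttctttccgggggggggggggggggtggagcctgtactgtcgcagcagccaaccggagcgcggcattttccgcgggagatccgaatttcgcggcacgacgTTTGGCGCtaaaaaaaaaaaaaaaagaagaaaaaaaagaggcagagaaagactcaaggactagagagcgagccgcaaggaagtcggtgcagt
E2F7: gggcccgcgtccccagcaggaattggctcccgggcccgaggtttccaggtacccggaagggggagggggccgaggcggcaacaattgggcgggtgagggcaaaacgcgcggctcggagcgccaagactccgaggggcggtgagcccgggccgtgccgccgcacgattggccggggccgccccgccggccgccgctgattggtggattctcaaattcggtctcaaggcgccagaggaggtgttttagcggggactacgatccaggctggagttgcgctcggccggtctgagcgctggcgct
In E2F1 the sites begin 33 and 20 bases before the start, the first of them read on the opposite strand, and in E2F2 the site begins 42 bases before it. In the E2F7 window none of these letters was found, and the same held for the windows of E2F4, E2F6 and TFDP2. The CCAAT motif, searched as CCAAT on both strands, occurred 4 times in the E2F7 window, 3 times in that of E2F1 and not in that of E2F2, and 34.6% of all windows held it. A match is a description of the sequence and not evidence of binding.

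Libraries held 15680459 to 23451253 counts assigned to genes. YES1 itself averaged 13.8 ± 0.82 CPM (reads per 1000000 reads of the TMM-scaled library) under siYES1 and 63.2 ± 6.16 CPM under siNS in MDA-MB-231, and 17.2 ± 1.80 CPM under siYES1 and 134 ± 23.8 CPM under siNS in SUM159PT (SD, n = 4 each). The receptor transcripts ESR1 and PGR were at 1.34 CPM or less in every library, while ERBB2 was present at 46.9 to 126 CPM. Of the mesenchymal-like markers, VIM and CD44 were above 412 CPM and ZEB1 at 49.7 to 101 CPM in every library, and VIM was higher under siYES1 in both lines without overlap. Of the epithelial markers, CDH1 was at 1.17 CPM or less and KRT5 at 3.10 CPM or less in every library. EPCAM had 10.7 to 14.0 CPM under siYES1 and 20.2 to 28.8 CPM under siNS in MDA-MB-231, and 0.825 CPM or less in SUM159PT. The part of these markers in the E2F results was not tested. Of the leukocyte and endothelial markers only PECAM1 passed 1 CPM, with up to 9.14 CPM in MDA-MB-231 siNS. In SUM159PT, replicate 1 of siNS stood apart from the other siNS libraries, at 30.5 on the second principal component against -21.6 to -8.83, and results for the members and gene lists of SUM159PT were therefore also computed without it.

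In MDA-MB-231 cells, E2F transcripts were higher after YES1 silencing in all 3 activators, in 3 of 5 repressors and in TFDP1. Of the 10 members, 7 rose, 0 fell and 3 were not called by edgeR's quasi-likelihood test at an adjusted p under 0.05. Over all 14319 genes tested, 52.4% were called, 24.9% higher and 27.5% lower. The median log2 fold change was 0.34 over the members and 0.00 over all genes. In 8 of the 10 members no siYES1 library fell within the range of the siNS libraries, against 47.1% of all genes. In the joint fit of both lines only E2F1, E2F7 and TFDP1 were called, and E2F2, E2F3, E2F4 and E2F8 were not (edgeR adjusted p = 0.0537 to 0.193). That fit called 5898 of 16299 genes, 2230 higher and 3668 lower, so the members were not called more often there than all genes. In RNA from bulk cultures, a larger share of cells in S phase and more transcript per cell cannot be told apart.

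The activators rose in the order E2F1, E2F2, E2F3. E2F1, which drives replication genes and can also promote apoptosis, stood at 167, 170, 169 and 180 CPM in the siYES1 libraries, against 79.5, 93.5, 123 and 98.8 CPM in the siNS libraries. All siYES1 libraries were higher, and the log2 fold change was 0.80 ± 0.10 (SE, n = 4 each, edgeR adjusted p = 6.13e-06). E2F2, a close relative with partly shared function, had 15.3, 15.0, 12.8 and 15.1 CPM under siYES1 and 8.34, 8.46, 10.7 and 9.68 CPM under siNS. Every siYES1 library again lay above every siNS library, and the log2 fold change was 0.65 ± 0.12 (edgeR adjusted p = 0.00019). For E2F3, an activator often amplified in bladder cancer, levels were 79.0, 81.4, 80.4 and 72.5 CPM under siYES1 and 71.9, 57.0, 64.8 and 61.0 CPM under siNS. Its groups nearly touched, and its rise was small, at 0.30 ± 0.08 on the log2 scale (edgeR adjusted p = 0.00653).

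Of the repressors, the atypical E2F7 changed most. E2F7 had 155, 145, 137 and 136 CPM in siYES1 libraries and 83.2, 57.3, 67.7 and 68.9 CPM in siNS libraries. The ratio of the group means was 2.07, and the log2 fold change was 1.05 ± 0.10 (edgeR adjusted p = 1.64e-07). E2F8, its paralog and partner in repression, rose less, with 24.4, 26.6, 23.8 and 26.7 CPM under siYES1 and 22.3, 17.9, 19.8 and 17.6 CPM under siNS. The log2 fold change of E2F8 was 0.39 ± 0.10 (edgeR adjusted p = 0.00343). E2F4, the main E2F bound to pocket proteins in resting cells, had 93.8, 93.4, 94.1 and 99.9 CPM under siYES1 and 74.0, 88.2, 72.0 and 79.8 CPM under siNS. Its groups did not overlap, and it rose by 0.28 ± 0.08 on the log2 scale (edgeR adjusted p = 0.00677).

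E2F5 and E2F6 were not called in MDA-MB-231. E2F5, which represses with RBL2, had 5.75 to 7.66 CPM under siYES1 and 6.59 to 9.80 CPM under siNS, which overlap (log2 fold change -0.28 ± 0.14, edgeR adjusted p = 0.119). Without siNS replicate 4 it was called, at -0.38 (edgeR adjusted p = 0.0341). Its exons overlap those of C8orf59 on the opposite strand over 16.3% of their length, and the sources used here do not say whether counting used strand, which makes E2F5 values uncertain. E2F6, which has no pocket protein binding domain, had 27.2 to 29.3 CPM under siYES1 and 25.8 to 27.0 CPM under siNS. Its log2 fold change was 0.09 ± 0.08 (edgeR adjusted p = 0.354), although the ranges did not overlap. E2F3, E2F4 and E2F6 also have processed pseudogenes, with 2, 1 and 4 copies annotated, so that reads of these members could be shared with the copies.

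The DP partners parted in this line. TFDP1, the main dimer partner of E2F1 to E2F6, had 207, 218, 212 and 222 CPM in siYES1 libraries and 141, 128, 151 and 129 CPM in siNS libraries. Its groups were far apart, and TFDP1 rose by 0.65 ± 0.07 on the log2 scale (edgeR adjusted p = 1.41e-06). TFDP2, the second partner, had 38.5, 43.6, 40.8 and 42.3 CPM under siYES1 and 47.3, 47.3, 47.4 and 40.4 CPM under siNS. The TFDP2 groups overlapped through the fourth siNS library, and the log2 fold change was -0.14 ± 0.08 (edgeR adjusted p = 0.16). When all 16 libraries were fitted together, E2F1, E2F7 and TFDP1 were called, and E2F2, E2F3, E2F4 and E2F8 were not, with adjusted p values of 0.0537, 0.0667, 0.0845 and 0.193.

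**Figure D1:**
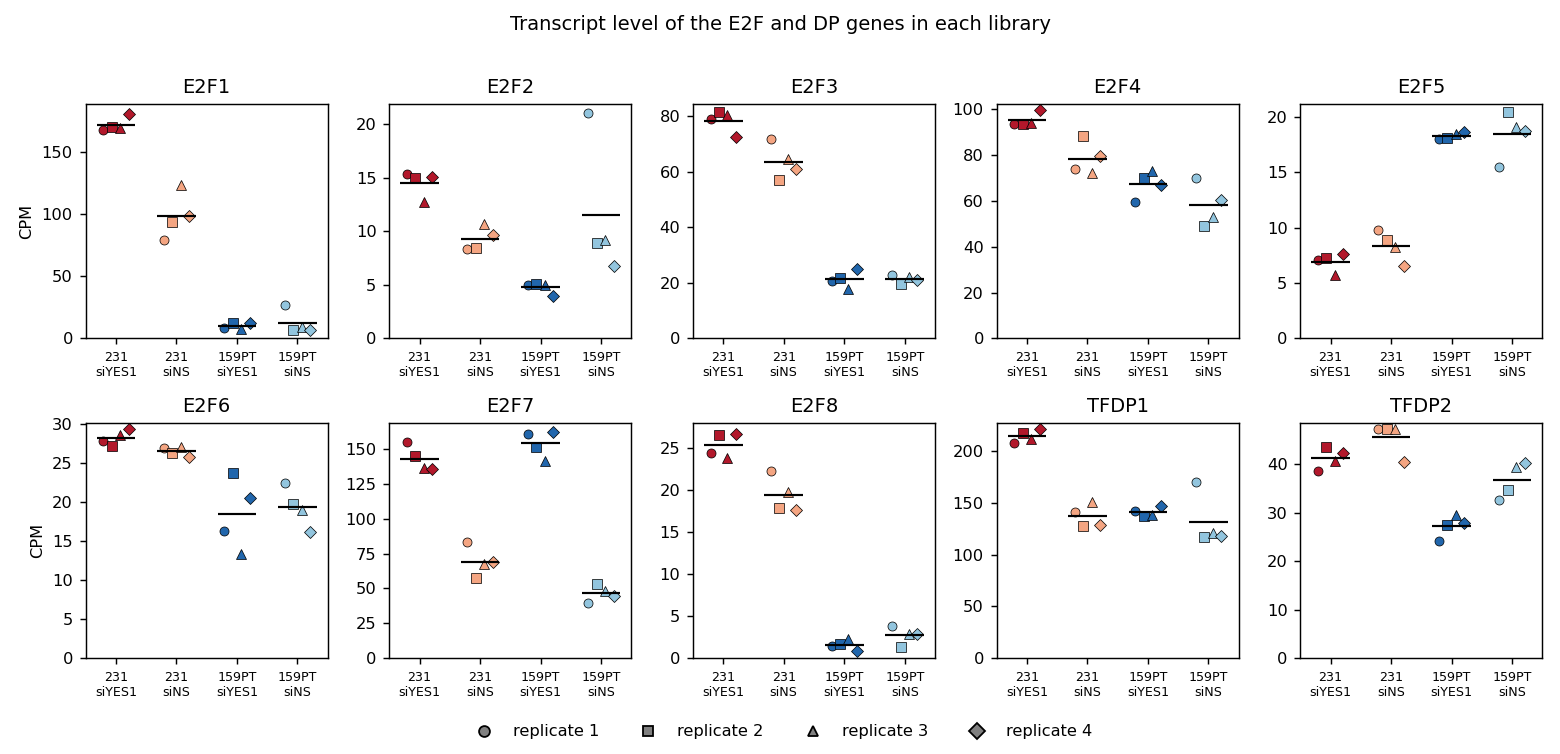
Transcript level of the 10 members in every library, in CPM scaled within each line (vertical axis from 0), for MDA-MB-231 siYES1 and siNS and SUM159PT siYES1 and siNS from left to right. Symbols mark replicate numbers and lines the group means; the siNS replicate 1 library of SUM159PT is the circle at 27.0 CPM for E2F1 and 21.1 CPM for E2F2, above the other siNS libraries, and E2F7 lies higher under siYES1 in both lines.

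In SUM159PT cells the family did not move together. E2F7 rose, E2F2 and TFDP2 fell, and the other 7 members were not called. Over all 14469 genes tested, 36.8% were called, 17.7% higher and 19.0% lower. Without siNS replicate 1, E2F4 and TFDP1 were called higher as well, giving 3 higher and 2 lower. More genes were called in that fit in general, 6237 of 14693. The joint fit of both lines, which called 6625 of 16299 genes, added E2F4, higher, and E2F8, lower. The groups were without overlap for E2F2, E2F7 and TFDP2, 3 of 10 members, against 36.8% of all genes. The median log2 fold change over the members was -0.04, with -0.03 over all genes.

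Of the activators, E2F2 fell in SUM159PT. E2F2 had 5.03, 5.05, 5.03 and 3.99 CPM in siYES1 libraries and 21.1, 8.94, 9.22 and 6.80 CPM in siNS libraries. All siYES1 libraries were lower, and its log2 fold change was -1.27 ± 0.31 (SE, n = 4 each, edgeR adjusted p = 0.00566). Without siNS replicate 1 the fall was smaller, at -0.81 ± 0.20 (edgeR adjusted p = 0.00229). E2F1 had 8.40, 12.5, 7.46 and 12.3 CPM under siYES1 and 27.0, 6.75, 9.63 and 7.02 CPM under siNS. One siNS library, replicate 1, was the highest of all, and the others overlapped with siYES1. The log2 fold change of E2F1 was -0.31 ± 0.38 (edgeR adjusted p = 0.57), and without that library it was 0.37 ± 0.20 (edgeR adjusted p = 0.156). E2F3 had 17.8 to 25.1 CPM under siYES1 and 19.8 to 23.0 CPM under siNS (log2 fold change -0.01 ± 0.12, edgeR adjusted p = 0.978), and without siNS replicate 1 its value was 0.02 ± 0.12 (edgeR adjusted p = 0.915).

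The siNS replicate 1 library also differed in the genes that E2F activates. The summed level of 36 G1/S target genes was 1095 to 1167 CPM in siYES1 libraries, 1915 CPM in siNS replicate 1 and 1030 to 1048 CPM in the other siNS libraries. Of these 36 genes, 32 were highest in replicate 1 among the 4 siNS libraries, and so were 7 of the 10 members. The share of all genes highest in replicate 1 was not computed, so these counts are not shown to be particular to E2F genes. The part of this library in the E2F results was not tested beyond leaving it out.

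E2F7 showed the largest change of the family in either line. It had 161, 152, 141 and 163 CPM in SUM159PT siYES1 libraries and 39.8, 53.5, 48.2 and 44.5 CPM in siNS libraries. The lowest siYES1 library lay far above the highest siNS library, and the ratio of means was 3.32. The log2 fold change was 1.73 ± 0.10 (edgeR adjusted p = 1.11e-07), and 1.65 ± 0.08 without siNS replicate 1 (edgeR adjusted p = 2.86e-12). E2F8 was low, with 1.44, 1.63, 2.28 and 0.861 CPM under siYES1 and 3.78, 1.30, 2.89 and 2.84 CPM under siNS. These are 19 to 43 reads per siYES1 library and 22 to 66 per siNS library, and the groups overlapped (log2 fold change -0.80 ± 0.39, edgeR adjusted p = 0.128). Its value without siNS replicate 1 was -0.61 ± 0.42 (edgeR adjusted p = 0.258), and the call changed without siNS replicate 2, at -1.02 (edgeR adjusted p = 0.0434).

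The other repressors were not called in SUM159PT. E2F4 had 59.5, 69.8, 73.3 and 66.8 CPM under siYES1 and 70.2, 48.9, 53.2 and 60.3 CPM under siNS. Replicate 1 was the highest siNS library, and the groups overlapped (log2 fold change 0.21 ± 0.11, edgeR adjusted p = 0.165). Without it, E2F4 rose by 0.31 ± 0.09 on the log2 scale (edgeR adjusted p = 0.00955). E2F5 had 18.0 to 18.7 CPM under siYES1 and 15.5 to 20.5 CPM under siNS, and its log2 fold change was -0.01 ± 0.12 (edgeR adjusted p = 0.958). E2F6 had 13.3 to 23.8 CPM under siYES1 and 16.2 to 22.5 CPM under siNS, and its log2 fold change was -0.07 ± 0.17 (edgeR adjusted p = 0.80). Both groups of E2F5 and of E2F6 overlapped, and neither was called without siNS replicate 1.

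Among the DP partners TFDP2 fell in SUM159PT. It had 24.2, 27.6, 29.6 and 27.9 CPM in siYES1 libraries and 32.7, 34.7, 39.5 and 40.3 CPM in siNS libraries. All siYES1 libraries were lower, and the log2 fold change was -0.43 ± 0.11 (edgeR adjusted p = 0.00742), or -0.49 ± 0.10 without siNS replicate 1 (edgeR adjusted p = 0.000575). TFDP1 had 142, 137, 138 and 147 CPM under siYES1 and 170, 117, 121 and 118 CPM under siNS. Replicate 1 lay above all siYES1 libraries and the other siNS libraries below them. Its log2 fold change was 0.10 ± 0.11 (edgeR adjusted p = 0.501), and TFDP1 rose by 0.25 ± 0.06 without that library (edgeR adjusted p = 0.00212). With total counts as the scaling, the TFDP1 value with all libraries was -0.073, beside a median of -0.20 over all genes.

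**Figure D2:**
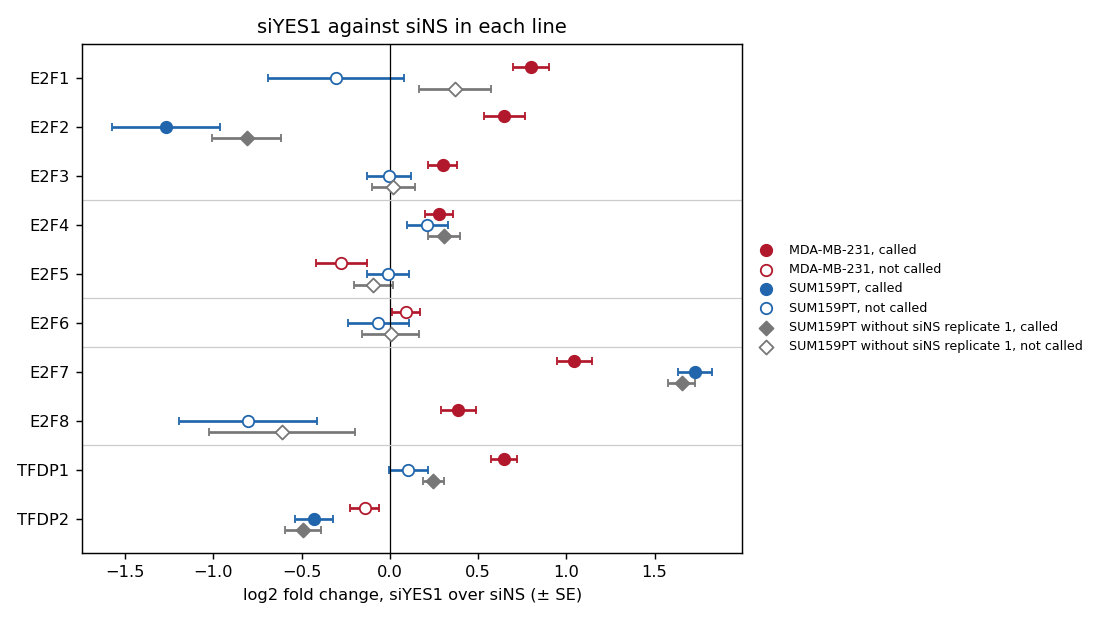
Log2 fold change of siYES1 over siNS with its SE for each member, ordered by role from activators at the top to DP partners at the bottom. Filled symbols were called at an adjusted p under 0.05; red is MDA-MB-231, blue SUM159PT and grey SUM159PT without siNS replicate 1. E2F7 lies at 1.05 and 1.73, and E2F2 lies on opposite sides of 0 in the lines.

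The effect of siYES1 differed between the lines in 4 members by the interaction test, against 24.3% of all genes. For E2F2 the difference, SUM159PT minus MDA-MB-231, was -1.82 ± 0.34 on the log2 scale (edgeR adjusted p = 0.000467), since it fell in SUM159PT and rose in MDA-MB-231. For E2F7, which rose in both lines, the difference was 0.78 ± 0.15 (edgeR adjusted p = 0.00052), a larger rise in SUM159PT. E2F8 and TFDP1 had differences of -1.11 ± 0.33 and -0.45 ± 0.14 (edgeR adjusted p = 0.0164 and 0.0222). These 4 members were called without siNS replicate 1 too, at -1.42, 0.65, -0.99 and -0.36 on the log2 scale. E2F1, at -1.0 ± 0.40, was not called (edgeR adjusted p = 0.0717), and without that library the difference was -0.39 ± 0.21 (edgeR adjusted p = 0.194). It was called without siNS replicate 2 or without siNS replicate 4 of SUM159PT, at -1.20 in each fit. With all libraries it was called with no filter on low counts, at -1.04 ± 0.16 (edgeR adjusted p = 3.87e-09). There the estimate was close to that of the main fit, and the call went with an SE below 0.40. It was also called with total counts as the scaling, at -1.25 (edgeR adjusted p = 0.0334). That scaling also called E2F3 and TFDP2, at -0.43 and -0.41. The other 5 members had differences between -0.21 and 0.36 and adjusted p values of 0.189 or more.

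The control cells of the lines differed in their E2F complement. SUM159PT siNS cells had less E2F1, E2F3, E2F4, E2F6, E2F7 and E2F8 than MDA-MB-231 siNS cells and more E2F5, so that 1 member was called higher and 6 lower. Of all 16299 genes tested, 77.0% were called, 38.0% higher and 39.0% lower. The large gaps were those of E2F1 at -2.84 ± 0.29, E2F8 at -2.71 ± 0.22 and E2F3 at -1.44 ± 0.11 on the log2 scale (edgeR adjusted p = 8.99e-09, 2.31e-10 and 3.14e-11). Without siNS replicate 1 of SUM159PT these were -3.49, -2.87 and -1.45. E2F7, E2F6 and E2F4 were lower by less, with log2 differences of -0.45, -0.32 and -0.30 (edgeR adjusted p = 0.000644, 0.0401 and 0.00908). E2F6 lost its call without any 1 of the MDA-MB-231 siNS libraries and without SUM159PT siNS replicate 3 or 4, with adjusted p values up to 0.133, and with genes averaging 1 CPM or more (edgeR adjusted p = 0.0536). E2F5 was higher, at 1.27 ± 0.14 (edgeR adjusted p = 2.27e-08), and C8orf59, which overlaps it, was higher by 1.29 ± 0.20. The part of C8orf59 reads in the E2F5 value was not tested. E2F2, TFDP1 and TFDP2 were not called (adjusted p = 0.0973, 0.535 and 0.0975). E2F2 was called without SUM159PT siNS replicate 4 (0.62, edgeR adjusted p = 0.0171) and TFDP2 without MDA-MB-231 siNS replicate 4 (-0.23, edgeR adjusted p = 0.0416) or with total counts as the scaling (-0.25, edgeR adjusted p = 0.0238). These siNS libraries are also the controls of the siYES1 comparisons, so the sets of values are not independent.

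Levels between members were compared per kb of merged exon. In MDA-MB-231 siYES1 libraries the order was E2F1 at 63.2 ± 2.18, TFDP1 at 52.9 ± 1.71, E2F4 at 24.5 ± 0.82 and E2F7 at 20.9 ± 1.30 CPM per kb (SD, n = 4), followed by E2F3, E2F6, E2F8, TFDP2, E2F2 and E2F5. No neighbours in that order overlapped. In MDA-MB-231 siNS libraries E2F1 at 37.7 ± 6.71 and TFDP1 at 35.1 ± 2.75 CPM per kb overlapped, as did E2F3 with E2F7 and E2F2 with E2F5. In SUM159PT siYES1 libraries TFDP1 led at 40.7 ± 1.36, followed by E2F7 at 26.4 ± 1.75 and E2F4 at 20.3 ± 1.74 CPM per kb, with no overlap between them. E2F1, at 4.39 ± 1.15 CPM per kb, came sixth and overlapped with E2F6, E2F3 and E2F5. In SUM159PT siNS libraries TFDP1 at 36.8 ± 7.21 and E2F4 at 17.0 ± 2.68 CPM per kb came before E2F7 at 7.73 ± 0.99 CPM per kb. Leaving out siNS replicate 1 gave 33.2 ± 0.52, 15.8 ± 1.63 and 8.11 ± 0.79 CPM per kb (SD, n = 3). E2F7 stood above E2F4 in every siYES1 library of SUM159PT and below it in every siNS library.

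Setting activators beside repressors gave a different picture in each line. In MDA-MB-231 the 3 activators held 56.8% to 58.1% of the E2F1 to E2F8 level per kb under siYES1 and 49.8% to 59.3% under siNS. Both sums were higher under siYES1, with activators at 79.7 ± 1.68 and 51.2 ± 6.62 and repressors at 58.6 ± 1.29 and 43.6 ± 1.86 CPM per kb in siYES1 and siNS libraries (SD, n = 4). The log2 ratio of activators to repressors was 0.39 to 0.47 under siYES1 and -0.01 to 0.54 under siNS, and these ranges overlap.

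In SUM159PT the activators held 12.8% to 16.6% of the level under siYES1 and 20.4% to 35.4% under siNS. The log2 ratio was -2.76 to -2.33 under siYES1 and -1.97 to -0.87 under siNS, with no overlap and with siNS replicate 1 at the upper end. The difference of the mean log2 ratios was -0.91, and -0.66 without siNS replicate 1. E2F7 alone made up 38.2% to 44.2% of the level under siYES1 and 11.7% to 21.8% under siNS. The sum of repressors was 55.3 ± 2.17 CPM per kb under siYES1 and 33.7 ± 1.96 CPM per kb under siNS. The sum of activators was 7.88 to 11.4 CPM per kb under siYES1, 20.01 CPM per kb in siNS replicate 1 and 8.49 to 10.3 CPM per kb in the other siNS libraries, so that without replicate 1 the siNS range lay within that of siYES1.

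**Figure D3:**
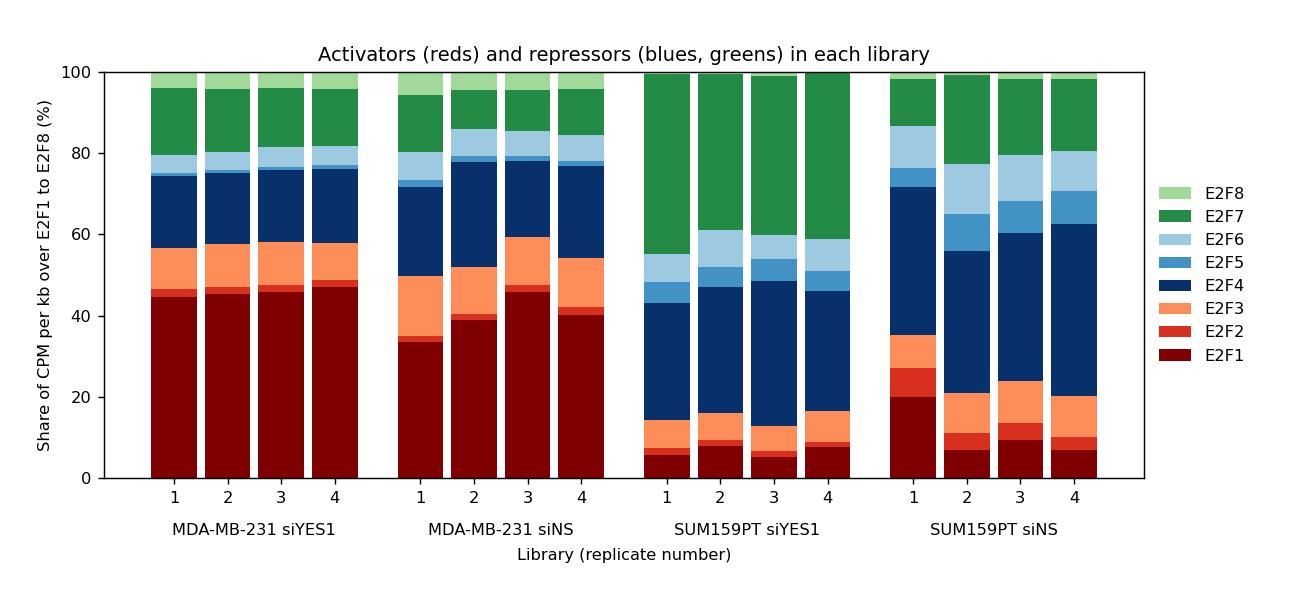
Share of each E2F in the summed level of E2F1 to E2F8 (CPM per kb of merged exon, in percent) for every library, with activators in reds at the bottom and repressors in blues and greens above. E2F7, in dark green, takes 38.2% to 44.2% in SUM159PT siYES1 and 11.7% to 21.8% in SUM159PT siNS, and E2F1, in dark red, takes 44.7% to 47.0% in MDA-MB-231 siYES1 and 33.5% to 45.8% in MDA-MB-231 siNS.

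Of the 3 pocket proteins, which bind E2Fs and turn them into repressors, 2 rose and 0 fell in each line, with medians of 1.08 in MDA-MB-231 and 0.42 in SUM159PT. Over all genes, 24.9% rose in MDA-MB-231 and 17.7% in SUM159PT. RB1, the partner of the activators, rose in both lines, with log2 fold changes of 1.08 ± 0.09 in MDA-MB-231 and 0.44 ± 0.07 in SUM159PT (edgeR adjusted p = 7.08e-08 and 0.000539). RBL1, itself an E2F target, averaged 79.4 ± 6.01 CPM under siYES1 and 36.5 ± 4.63 CPM under siNS in MDA-MB-231 (edgeR adjusted p = 6.05e-08). In SUM159PT it averaged 6.61 ± 1.53 CPM under siYES1 and 8.62 ± 2.98 CPM under siNS and was not called (edgeR adjusted p = 0.258). RBL2, the partner of E2F4 in resting cells, had a log2 fold change of 0.42 ± 0.09 in SUM159PT (edgeR adjusted p = 0.00247) and of 0.07 ± 0.09 in MDA-MB-231 (edgeR adjusted p = 0.534). The SUM159PT values without siNS replicate 1 were 0.40 for RB1, -0.12 for RBL1 and 0.37 for RBL2, with the same calls. With all libraries, the difference between the lines, SUM159PT minus MDA-MB-231, was called for each, at -0.54 for RB1, -1.40 for RBL1 and 0.45 for RBL2.

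The target genes of the activators rose too in MDA-MB-231. Of 36 G1/S targets of E2F, 35 were tested in each line. In MDA-MB-231, 34 rose, beside 24.9% of all genes, 0 fell and the median log2 fold change was 0.77, with 0.00 over all genes. DTL, a ubiquitin ligase subunit that clears replication licensing factors, averaged 98.3 ± 3.84 CPM under siYES1 and 31.1 ± 3.59 CPM under siNS (log2 fold change 1.66). UHRF1, which guides maintenance DNA methylation, averaged 247 ± 23.2 CPM under siYES1 and 101 ± 25.1 CPM under siNS (log2 fold change 1.30). In SUM159PT, 4 of the 35 rose and 6 fell, beside 17.7% and 19.0% of all genes, with a median of -0.28 against -0.03 over all genes. Without siNS replicate 1 the counts were 6 and 6 and the median 0.04, and with total counts as the scaling 1 and 8 and -0.47.

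Individual targets went both ways in SUM159PT. DTL rose by 0.88 ± 0.22 and RRM2, a subunit of ribonucleotide reductase, by 0.72 ± 0.26 on the log2 scale (edgeR adjusted p = 0.00748 and 0.0457). Both rises were larger without siNS replicate 1, at 1.18 each. MCM3, a subunit of the replicative helicase, had 16.7 to 21.1 CPM under siYES1, 104 CPM in siNS replicate 1 and 31.4 to 35.2 CPM in the other siNS libraries. Its log2 fold change was -1.39 ± 0.33 (edgeR adjusted p = 0.00512), and -0.78 without that library (edgeR adjusted p = 1.02e-05). UNG, a DNA glycosylase, had log2 fold changes of -1.21 ± 0.26 (edgeR adjusted p = 0.00267) and, without it, -0.82 (edgeR adjusted p = 0.000146).

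CDK6 and CDK2, kinases that release E2F from RB, rose in both lines, and so did the kinase inhibitor genes CDKN1A, CDKN1B and CDKN2D. The list of G1 cyclins, kinases and inhibitors pools genes that act in opposite ways on E2F. Of these, 8 of 13 tested rose and 3 fell in MDA-MB-231 (median 0.30), beside 52.4% of all genes called. In SUM159PT 6 of 12 rose and 4 fell (median 0.31), beside 36.8% of all genes called. In MDA-MB-231 and SUM159PT, CDKN1A was at 0.26 and 1.04, CDKN1B at 0.30 and 0.52, and CDKN2D at 0.50 and 0.51. CDKN2C, at 0.80, and CDKN1C, at -0.92, were called in MDA-MB-231 and not in SUM159PT. CDK6, which phosphorylates RB with D cyclins, averaged 199 ± 15.5 CPM under siYES1 and 46.4 ± 7.0 CPM under siNS in MDA-MB-231, and 146 ± 7.22 CPM under siYES1 and 52.6 ± 5.77 CPM under siNS in SUM159PT. CDK2, the partner of cyclins E and A, rose by 1.6 and 1.15 on the log2 scale in MDA-MB-231 and SUM159PT. CCND1, a D cyclin that partners CDK6, fell to 661 ± 18.8 CPM under siYES1, against 1276 ± 19.8 CPM under siNS, in MDA-MB-231, and to 413 ± 24.6 CPM under siYES1, against 720 ± 22.2 CPM under siNS, in SUM159PT. CCND2 fell in MDA-MB-231 (log2 fold change -3.12), where it was near the detection limit under siYES1 at 0.431 ± 0.28 CPM, against 3.83 ± 0.48 CPM under siNS. For CDK6, CDK2 and CCND1 the SUM159PT log2 fold changes without siNS replicate 1 were 1.43, 1.15 and -0.79, and the counts of the list were 6 rising and 4 falling of 13 (median 0.16). CCNE2, a cyclin E gene, was called lower in SUM159PT (log2 fold change -1.01, edgeR adjusted p = 0.0457) and lost the call without siNS replicate 1 (-0.69, edgeR adjusted p = 0.139).

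Of 5 genes linked to E2F protein turnover or release from DNA, 4 rose and 0 fell in MDA-MB-231 (median 0.83), where 24.9% of all genes rose. These genes do not all act on E2F in the same direction, so the count is no measure of turnover. In SUM159PT 3 rose and 0 fell (median 0.40), or 4 and 0 without siNS replicate 1 (median 0.49), beside 17.7% of all genes with all libraries. CCNA2, whose cyclin with CDK2 phosphorylates DP proteins and releases activators from DNA, averaged 236 ± 6.30 CPM under siYES1 and 106 ± 6.09 CPM under siNS in MDA-MB-231. In SUM159PT it averaged 183 ± 5.74 CPM under siYES1 and 72.6 ± 10.3 CPM under siNS, and the difference of its fold changes between the lines was not called (0.27, edgeR adjusted p = 0.103). Its SUM159PT log2 fold change without siNS replicate 1 was 1.41. SKP2, of the ligase that degrades E2F1, rose by 1.01 on the log2 scale in MDA-MB-231 and was not called in SUM159PT with all libraries (0.28). CCNF, the adaptor that targets activators for degradation, rose by 0.83 in MDA-MB-231 and by 0.49 in SUM159PT, or by 0.60 without siNS replicate 1. The difference between the lines was called for SKP2 (-0.63, edgeR adjusted p = 0.00536) and not for CCNF (-0.25, edgeR adjusted p = 0.375). Of 7 genes of MuvB and the Myb factors that join it, 4 rose and 0 fell in MDA-MB-231 (median 0.39), beside 52.4% of all genes called. In SUM159PT 2 rose and 1 fell (median -0.15), beside 36.8% of all genes called. MYBL1, which encodes A-Myb, rose by 0.64 and 0.93 in MDA-MB-231 and SUM159PT, and LIN54 by 0.59 and 0.30. LIN9 rose by 0.81 in MDA-MB-231 and was not called in SUM159PT (-0.14). RBBP4 rose by 0.39 in MDA-MB-231 and fell by 0.33 in SUM159PT. Its difference between the lines was called (-0.62, edgeR adjusted p = 0.00165). In SUM159PT, MYBL1, LIN54 and RBBP4 were at 1.0, 0.26 and -0.20 without siNS replicate 1 and stayed called, and the median of the list was then -0.03.

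Of 12 genes of the polycomb complex of E2F6, 5 rose and 2 fell in MDA-MB-231 (median 0.08), beside 52.4% of all genes called. In SUM159PT 1 rose and 1 fell (median -0.11), beside 36.8% of all genes called. There, 3 rose and 2 fell once siNS replicate 1 was left out (median -0.08). RNF2, the catalytic ubiquitin ligase, rose in MDA-MB-231 by 0.71 and in SUM159PT by 0.79 on the log2 scale, or by 0.65 without that library, and PCGF6, the subunit that defines the complex, rose by 0.63 in MDA-MB-231. RING1 and RYBP fell by 0.34 and 0.28 in MDA-MB-231, and L3MBTL2 fell by 1.02 in SUM159PT, or by 0.67 without siNS replicate 1. Of 6 germline genes that E2F6 represses in mouse, 3 were tested in MDA-MB-231, with 0 rising and MAEL falling (log2 fold change -0.55). Of all genes in that line, 24.9% rose and 27.5% fell. In SUM159PT 1 was tested and not called.

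Apoptosis genes that E2F1 can activate were called in both directions in each line. In MDA-MB-231, 2 of 9 rose and 2 fell (median 0.04), beside 52.4% of all genes called, among them APAF1, of the apoptosome, at 0.44, PMAIP1 at -0.24 and BID at -0.23. In SUM159PT, 4 of 10 rose and 2 fell (median 0.12), beside 36.8% of all genes called, and the counts were the same without siNS replicate 1. There the BH3-only genes HRK and BBC3 rose by 1.23 and 0.80, and TP73 and BID fell by 0.83 and 0.32. Without siNS replicate 1 the values were 1.03, 0.53, -0.66 and -0.33, and all 4 stayed called. With all libraries, APAF1 was called higher in SUM159PT too, at 0.50.

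**Figure D4:**
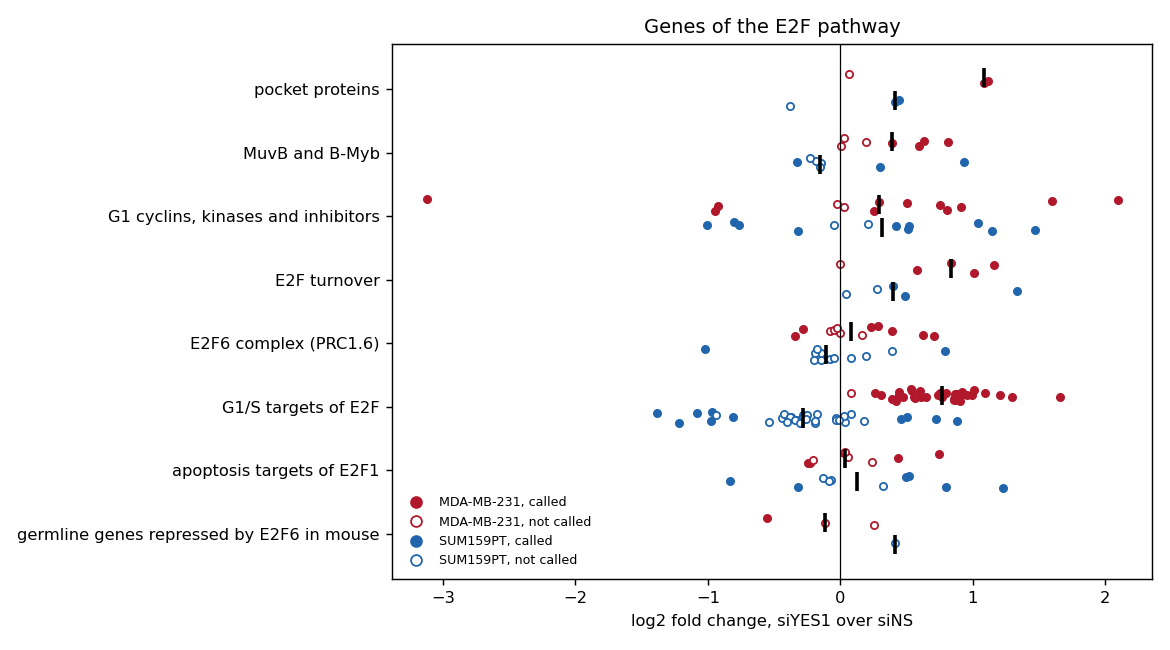
Log2 fold change of siYES1 over siNS for the genes of each list of the E2F pathway, in MDA-MB-231 (red) and SUM159PT (blue), with black bars at the list medians and filled points for genes called at an adjusted p under 0.05. The G1/S targets lie to the right of 0 in MDA-MB-231, with a median of 0.77, and around -0.28 in SUM159PT.

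The genes whose level followed a member most closely were found by Pearson's r of log2 CPM, centred within each line, over 16 libraries and 9616 genes. For E2F1 these were MCM5 at 0.96, TADA2A at 0.93 and CCDC137 at 0.93, and MCM5 belongs to the G1/S list. For E2F8 they were KDM2B at 0.92, ABCB10 at 0.86 and KIAA0753 at 0.86. For E2F7, added after its values were seen, they were TGOLN2 at 0.99, SLAIN2 at 0.98 and UBQLN1 at 0.98. The points share the siRNA and the library, and the values of r are descriptions. They were not recomputed without SUM159PT siNS replicate 1. E2F1 was at 27.0 CPM in that library and at 6.75 to 12.5 CPM in the other SUM159PT libraries. The values for E2F8 rest on 19 to 66 reads per library in SUM159PT. TGOLN2, a protein of the trans-Golgi network, had log2 fold changes of 0.71 in MDA-MB-231 and 1.09 in SUM159PT. It was picked for following E2F7 in these same libraries, so its rise in both lines follows from that choice and is not a separate result.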

How the data were processed

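Poly(A) RNA-seq was analysed in 16 libraries. The deposited values are raw read counts per gene, made by the authors with HISAT2 2.0.5 and featureCounts 1.5.0-p3 on hg38, per the submitters' processing notes. Libraries could be directional or not, and the strand setting is not given in the sources used here. Columns of the second table carry a prefix that is not the line's name, and their identity as SUM159PT rests on the sample labels. Gene symbols came from GENCODE 29, whose 58735 gene IDs all matched.

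Each line was fitted alone in edgeR 4.0.16 with TMM scaling, filterByExpr, the quasi-likelihood F test and Benjamini-Hochberg adjustment over all genes tested, and calls were made under 0.05. All 10 members passed the filter. The difference between lines and the siNS contrast came from a joint fit of 16 libraries. CPM values within a line use that line's scaling, and levels per kb use scaling over all 16 libraries. Alternatives were DESeq2 1.42.0, voom in limma 3.58.1, scaling by RLE or total counts, every gene with a count, genes averaging 1 CPM or more, a replicate block, the joint fit, and leaving out each library. Named genes are all members, YES1, whole lists of 3 genes, the 3 genes most like E2F1 and E2F8, and in other lists up to 2 called genes with the highest and up to 2 with the lowest fold change in each line. Outside this rule, the CDKN genes tested in the G1 list are named too. The fits were tested on simulated data, with 50 genes changed at each fold. Changes of 1.5-fold were recovered in 90% in MDA-MB-231, 58% in SUM159PT and 38% for the difference between lines. For 2-fold changes the shares were 100%, 96% and 88%. Members not called are therefore not shown to be unchanged. Libraries of a group differed beyond sampling noise, with a chi-squared per degree of freedom of 2.21 to 49.6. Members and lists were chosen with earlier results of these data known. One gene that the naming rule selected is not reported here by name; the counts and medians of its list include it.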

Additional observations from a re-analysis of the deposited data

Results flagged for a closer look

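Of 44 sets of 4 libraries examined, in 7 the highest or lowest library lay apart from the other 3 by Dixon's ratio, the gap to the nearest library divided by the range, which chance gives in about 1 of 20 sets. In SUM159PT siNS the library was replicate 1 for E2F1 (ratio 0.858, 27.0 CPM), E2F2 (0.831, 21.1 CPM) and TFDP1 (0.931, 170 CPM), high in each case. In the other 4 sets the library was low for E2F2 in SUM159PT siYES1 (0.975, 3.99 CPM), for E2F2 in MDA-MB-231 siYES1 (0.869, 12.8 CPM) and for TFDP2 in MDA-MB-231 siNS (0.985, 40.4 CPM), and high for E2F4 in MDA-MB-231 siYES1 (0.906, 99.9 CPM).

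The effect of siYES1 differed between lines in 4 members by edgeR's interaction test, as SUM159PT minus MDA-MB-231 on the log2 scale. That test comes from the joint fit of 16 libraries. The values given for each line come from that line's own fit, so they do not subtract exactly to the difference. E2F2 differed by -1.82, with -1.27 in SUM159PT and 0.65 in MDA-MB-231. E2F7 differed by 0.78, with 1.73 in SUM159PT and 1.05 in MDA-MB-231. E2F8 differed by -1.11, with -0.80 in SUM159PT and 0.39 in MDA-MB-231. TFDP1 differed by -0.45, with 0.10 in SUM159PT and 0.65 in MDA-MB-231.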

How the results depend on the processing

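In MDA-MB-231 the count of members called was 7 in all settings but the joint fit of 16 libraries, which called 3, and 7 or 8 when 1 library was left out. In SUM159PT it was 3 in all settings but the joint fit, which called 5 (E2F4 and E2F8 added), and 3 to 5 when 1 library was left out, with 5 without siNS replicate 1. Of all genes, the joint fit called 5898 of 16299 in MDA-MB-231 and 6625 in SUM159PT. Leaving out siNS replicate 1 gave 6237 of 14693 in SUM159PT. In the difference between lines 4 were called, and 7 with total counts as the scaling, which added E2F1, E2F3 and TFDP2, and 5 with no filter on low counts, which added E2F1. In the siNS contrast 7 were called, 6 with genes averaging 1 CPM or more (E2F6 lost) and 8 with total counts (TFDP2 added). With that scaling the median of all genes in SUM159PT was -0.20, beside -0.03, and the split of calls was 1394 higher and 4173 lower, beside 2566 and 2755. For the difference between lines it gave 1375 higher and 2795 lower, and RLE scaling 2105 and 1716, beside 2511 and 1442. The mean log2 ratio of activators to repressors, siYES1 minus siNS in MDA-MB-231, was 0.22, and 0.064 with no length correction.

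Signs turned in some members that were not called. In SUM159PT, E2F3 was 0.0016 with RLE scaling, 0.0074 with no filter, 0.0019 with DESeq2 and 0.038 in the joint fit, E2F5 was 0.0022 with no filter and 0.032 in the joint fit, and TFDP1 was -0.073 with total counts. The difference for E2F4 was -0.027 with RLE scaling, -0.196 with total counts, -0.011 with no filter and -0.027 with DESeq2. Leaving out 1 library gave ranges in SUM159PT of -0.50 to 0.37 for E2F1, -0.090 to 0.076 for E2F3, -0.093 to 0.045 for E2F5 and -0.21 to 0.066 for E2F6, for the difference between lines -0.039 to 0.089 for E2F4 and -0.20 to 0.074 for E2F6, and for the siNS contrast -0.0029 to 0.62 for E2F2 and -0.057 to 0.12 for TFDP1. The cause was not tested.

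Replicate numbers did not pair the samples, with correlations of same-numbered deviations of -0.32 to 0.09 in MDA-MB-231 and -0.12 to 0.23 in SUM159PT. With the replicate block 7109 and 4961 genes were called in MDA-MB-231 and SUM159PT, beside 7503 and 5321, and the counts of members called were those without it. Depth limits E2F8 in SUM159PT, with 19 to 66 reads per library.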
